A study of Bos taurus with 12 samples.

Results

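Insulin acts on a cell through a short chain of proteins that runs from its receptor to the machinery of protein synthesis, and the genes of that chain are described here in the inflamed mammary gland of fed and feed-restricted cows. The 10 genes were taken as a named list (INSR, IRS1, IRS2, AKT1, AKT2, MTOR, RPTOR, DEPTOR, EIF4EBP1 and RPS6KB1), and a gene was measured where an array probe carries a RefSeq accession of that gene. Of the 10 genes, 6 were matched, by 10 of the 43653 probes of the array. AKT1 and AKT2 had 1 probe each, and RPTOR, DEPTOR, EIF4EBP1 and RPS6KB1 had 2 probes each. INSR, IRS1, IRS2 and MTOR were not matched to a probe and were not analysed here, so that the receptor, its docking proteins and the kinase itself are missing from the chain. All 6 measured genes had levels that overlapped between the diets, and none passed a test of REST against CONT. EIF4EBP1, the translation repressor at the end of the chain, varied most between cows of the same diet among the members detected on every array. Its level rose and fell with a summed level of leukocyte markers that consists largely of CD4, while CD8A went the opposite way. Because its markers did not all go one way, the sum is not a measure of leukocyte number.

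When insulin or IGF1 binds its receptor, IRS proteins are phosphorylated and recruit PI3-kinase, and the lipid it makes brings AKT to the membrane, where it is activated. AKT relieves the TSC brake on RHEB, RHEB switches on mTOR complex 1, and this complex phosphorylates EIF4EBP1 and the S6 kinase RPS6KB1 to raise translation. In the lactating mammary gland this route links the supply of insulin and amino acids to milk protein synthesis. It is switched mainly by phosphorylation and by lipid and amino acid signals, none of which an array measures, so the values below are transcript levels only.

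The arrays measured RNA from mammary biopsies of 12 multiparous Holstein cows in early lactation, with 1 one-color array per cow. The 6 CONT cows were fed a lactation diet, and the 6 REST cows were given, for 4 d, feed in which barley straw made up 48% of dry matter. Treatment began at 24 ± 3 days in milk. All 12 cows had 50 µg of LPS infused into the udder on d 3 and were biopsied 24 h later, so both diets carry the LPS challenge and no gland without LPS was measured. The comparison asks whether undernutrition altered the insulin to mTOR transcripts of the inflamed gland. Each value is the log2 intensity of a probe minus the 75th percentile of its array, called its level below; levels of different probes are not comparable with each other. A biopsy mixes several cell types, and fewer cells of a type cannot be told apart from less RNA per cell.

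The arrays correlated with each other at 0.9327 to 0.9843, and the scanner software called 57.37 to 78.13% of the probes well above background. All 9 matched markers of secretory epithelium were above background on the 12 arrays. The arrays lay on 3 slides, with 3 CONT and 1 REST cow on slide 1, 1 CONT and 3 REST cows on slide 2, and 2 of each on slide 3. CONT cow 8027 stood apart from the other CONT cows. Its summed endothelial markers were 6.88 against 24.1 to 29.9 in the other CONT cows, and its summed adipocyte markers were 12.6 against 68.1 to 252 (linear signal, in units of the array's 75th percentile). The adipocyte sum is almost wholly the signal of FABP4 and CIDEA. BTN1A1, a protein of the milk fat globule membrane, had a level of 4.25 in this cow and of 5.79 to 8.10 in the other CONT cows. REST cow 1018 had a like BTN1A1 level of 4.19, against 5.93 to 8.42 in the other REST cows, but its endothelial and adipocyte sums were 31.3 and 103.5. Values that move by over 1.5 times without CONT cow 8027 are given both ways for the brightest probes of the members and of the genes named below.

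Over all probes, limma's moderated test with Westfall-Young adjustment called 0 of 43653 probes (0%) at an adjusted p under 0.05, and the lowest adjusted p was 0.29. Benjamini-Hochberg adjustment also called 0 probes. Without adjustment 1143 probes (2.62%) had a p under 0.05, 761 with the higher mean in REST and 382 with the lower. Among the brightest probes of the 11532 named genes detected on at least 1 array, 327 (2.84%) had an unadjusted p under 0.05, and 5218 (45.2%) had the higher mean in REST. None of the 6 members had an unadjusted p under 0.05, and 5 of the 6 had the higher mean in REST. The count of 5 is a description of small differences, each within the spread between cows. All 10 member probes had a Westfall-Young adjusted p of 1 over all probes.

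AKT1 and AKT2 are the kinases that receive the signal of the receptor, and AKT2 is the form best known for insulin-stimulated glucose uptake. The AKT1 probe (A_73_P031386, transcript NM_173986) was above background on all 12 arrays. In CONT its level was 0.21 at the lowest, 0.42 at the median and 0.90 at the highest, and in REST it was 0.27, 0.58 and 0.98. The ranges of the diets overlapped almost entirely, although 5 of the 6 REST cows lay above the CONT mean. CONT averaged 0.45 ± 0.25 (SD, n = 6) and REST 0.59 ± 0.23 (SD, n = 6). The log2 FC of REST minus CONT was 0.14 (SE 0.17), with a 95% interval from -0.22 to 0.50 (exact permutation p = 0.344, two-sided, n = 6). In fold terms this interval runs from 0.858 to 1.41. Within the slides the AKT1 difference was 0.15, 0.16 and 0.11, and 0.13 (SE 0.18) in the fit with slide as a block. It was 0.059 without REST cow 7043 and 0.23 without CONT cow 1024.

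AKT2 was at the edge of detection. Its probe (A_73_120813, transcript NM_001206146) was above background on 1 of 6 CONT arrays and on 2 of 6 REST arrays. The level was -6.25, -5.14 and -4.71 (lowest, median and highest) in CONT and -5.95, -4.87 and -4.20 in REST. Except for cow 0049, whose level was the highest, the REST cows lay inside the CONT range. AKT2 had a log2 FC of 0.39 (SE 0.35), with a 95% interval from -0.37 to 1.14 (exact permutation p = 0.320, two-sided, n = 6). With slide as a block it was 0.61 (SE 0.37), and with normexp background correction it was 0.019. It was 0.21 without CONT cow 0015 and 0.24 without REST cow 0049. With the probe above background on 3 of 12 arrays, this interval reflects mostly undetected signal and does not bound the change of the transcript.

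The change of AKT1 was also set against that of AKT2 within each cow. The level difference between the probes changed by -0.25 (SE 0.40) from CONT to REST (exact permutation p = 0.515, two-sided, n = 6; 0.823 after Benjamini-Hochberg adjustment over the 3 such comparisons made). It was -0.47 with slide as a block, -0.43 to -0.094 with 1 cow left out (lowest without REST cow 1015, and closest to 0 without REST cow 0049 or CONT cow 9040, -0.097), and 0.13 with normexp background correction. Because the AKT2 probe was above background on 3 of 12 arrays, this comparison says little about one AKT form against the other.

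RPTOR and DEPTOR are subunits that set the activity of mTOR. RPTOR is the scaffold that presents substrates to complex 1, and DEPTOR is an inhibitor that binds the kinase. Both were dim, and their intervals carry the same limit as that of AKT2. The brighter RPTOR probe (A_73_P066356, transcript NM_001192130) exceeded background on 2 arrays of each diet, and the other RPTOR probe on none, so that no change is given for it. The brighter RPTOR probe had levels of -5.67, -5.09 and -3.94 (lowest, median and highest) in CONT and of -5.48, -5.07 and -4.69 in REST. The highest value was that of CONT cow 8027, and all REST cows lay inside the CONT range. The log2 FC was -0.075 (SE 0.28), with a 95% interval from -0.69 to 0.54 (exact permutation p = 0.825, two-sided, n = 6). Without cow 8027 it was 0.14.

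The brighter DEPTOR probe (A_73_P036631, transcript NM_001102312) exceeded background in 2 CONT and 3 REST cows, and the other in 2 cows of each diet. Levels of the brighter probe were -5.64, -5.10 and -4.23 (lowest, median and highest) in CONT and -5.45, -4.80 and -4.09 in REST. Its log2 FC was 0.19 (SE 0.28), with a 95% interval from -0.42 to 0.81 (exact permutation p = 0.517, two-sided, n = 6). It was 0.045 without REST cow 0049, 0.071 without CONT cow 1024, 0.35 without CONT cow 0015 and -0.051 with normexp. The other probe gave 0.090 (SE 0.32). Within the slides the brighter DEPTOR probe differed by -0.17, 0.50 and 0.041, so that not even the sign was shared. The change of DEPTOR relative to RPTOR was 0.27 (SE 0.48; exact permutation p = 0.576, two-sided, n = 6; 0.823 adjusted over the 3 comparisons). It was 0.059 without CONT cow 8027, 0.043 without REST cow 0049 and 0.54 without CONT cow 0015. The inhibitor and the scaffold thus showed no detectable shift against each other, at signals where few arrays measured either.

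**Figure D1:**
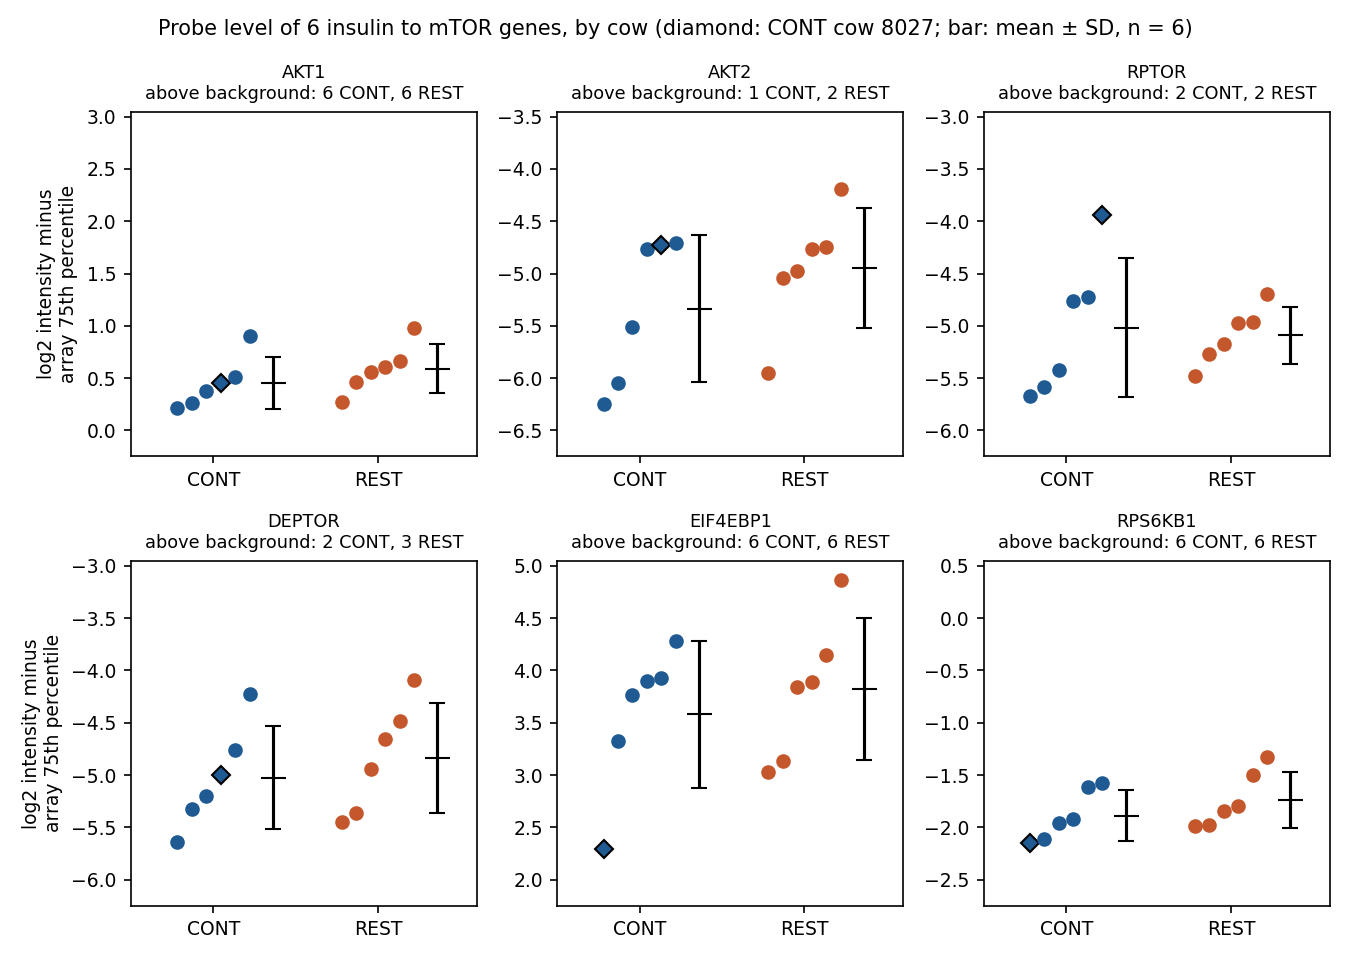
Level (log2 intensity minus the array's 75th percentile) of the brightest probe of each measured member in 6 CONT and 6 REST cows; points are cows, the diamond is CONT cow 8027, bars are mean ± SD, every panel spans the same number of log2 units, and panel titles give the arrays on which the probe was well above background. The diets overlap in every panel, and cow 8027 is the lowest of 12 cows for EIF4EBP1 (2.29) and the highest for RPTOR (-3.94).

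EIF4EBP1 and RPS6KB1 are the best known targets of mTOR complex 1. EIF4EBP1 holds the cap-binding protein EIF4E and blocks translation until it is phosphorylated, whereas RPS6KB1 phosphorylates ribosomal protein S6 and also feeds back on the IRS proteins. Both probes of EIF4EBP1 were above background on all 12 arrays. The brighter one (A_73_P051026, transcript NM_001077893) had levels of 2.29, 3.83 and 4.29 (lowest, median and highest) in CONT and of 3.03, 3.87 and 4.86 in REST. The lowest value of all was that of CONT cow 8027, the highest that of REST cow 1058, and the medians of the diets were almost the same. CONT averaged 3.58 ± 0.70 (SD, n = 6) and REST 3.82 ± 0.68 (SD, n = 6). EIF4EBP1 thus had a log2 FC of 0.24 (SE 0.37), with a 95% interval from -0.57 to 1.04 (exact permutation p = 0.589, two-sided, n = 6).

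This small difference rested on single cows. Without CONT cow 8027 the log2 FC of EIF4EBP1 was -0.022, and without REST cow 1058 it was 0.028. The other EIF4EBP1 probe had the same log2 FC of 0.24 (SE 0.29; exact permutation p = 0.478, two-sided, n = 6). Within the slides the brighter probe differed by -0.72 on slide 1, 0.066 on slide 2 and 0.92 on slide 3, and the block fit gave 0.17 (SE 0.42).

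RPS6KB1 had a smaller spread between cows. Both probes were above background on all 12 arrays, and the brighter one (A_73_P470308, transcript NM_205816) had levels of -2.15, -1.94 and -1.57 (lowest, median and highest) in CONT and of -1.98, -1.82 and -1.33 in REST. REST cows 0049 and 7043 lay above the highest CONT cow, and the other 4 REST cows lay inside the CONT range. CONT averaged -1.89 ± 0.24 (SD, n = 6) and REST -1.74 ± 0.27 (SD, n = 6). RPS6KB1 had a log2 FC of 0.15 (SE 0.17), with a 95% interval from -0.22 to 0.52 (exact permutation p = 0.329, two-sided, n = 6). The second probe gave 0.0088 (SE 0.15), and with slide as a block the brighter probe gave 0.0021 (SE 0.16). Without CONT cow 8027 the brighter probe gave 0.099, and without REST cow 0049 it gave 0.069.

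The change of EIF4EBP1 relative to RPS6KB1 was 0.086 (SE 0.37; exact permutation p = 0.823, two-sided, n = 6; 0.823 adjusted over the 3 comparisons). It was -0.12 without CONT cow 8027 and -0.17 without REST cow 1058, so its sign depended on single cows. The diets did not detectably move the repressor against the S6 kinase.

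**Figure D2:**
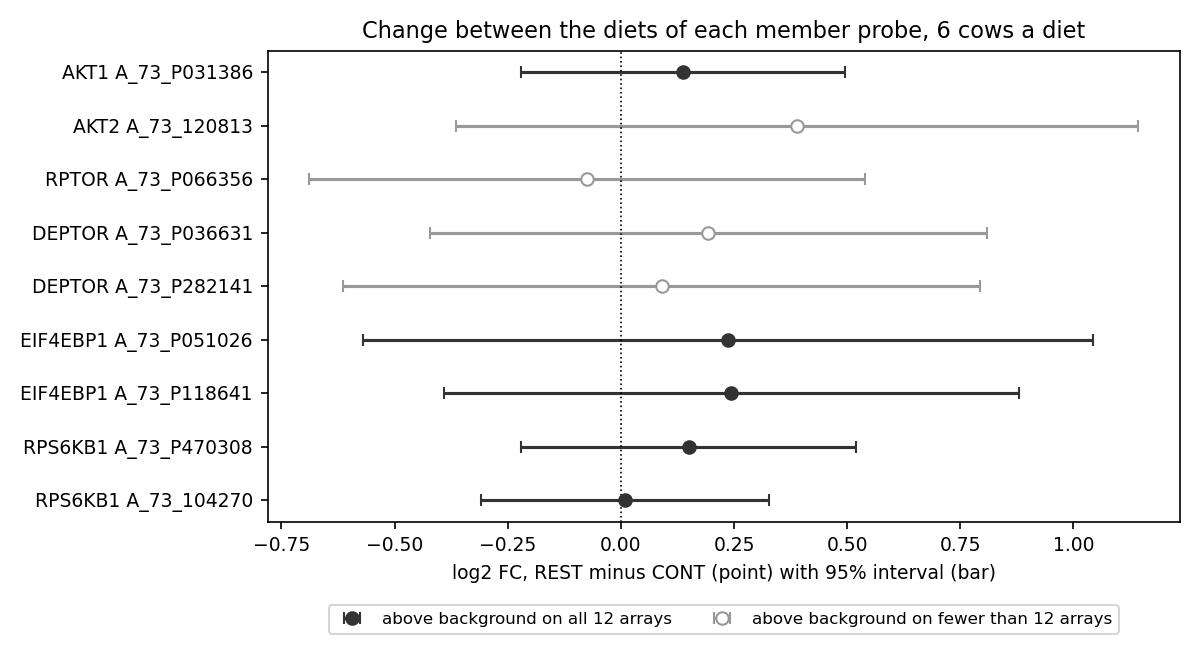
Log2 FC (REST minus CONT, horizontal axis) of the 9 member probes above background on at least 1 array, with 95% intervals from limma; filled points were above background on all 12 arrays. Every interval includes 0, and the narrowest are those of AKT1 and RPS6KB1.

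The spread between cows of one diet differed among the members measured on all arrays. The within-diet SD of log2 levels was 0.24 for AKT1 and 0.26 for the brighter RPS6KB1 probe, below the median of 0.34 over the 23908 probes that were above background on all 12 arrays. For EIF4EBP1 it was 0.69, higher than in 88.7% of those probes, and its other probe reached 0.53, higher than in 77.3%. The AKT1 probe stood at 24.8% of that distribution, and the RPS6KB1 probes at 28.5% and 11.6%. A difference of given size was therefore better bounded for AKT1 and RPS6KB1 than for EIF4EBP1.

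The marker levels of the 7 cell type lists were compared with the members over the 12 cows, a comparison chosen after the values of both had been seen. Each of the 6 members was set against the summed level of each list on the log2 scale, giving 42 relations, with permutation p-values adjusted by Benjamini-Hochberg over the 42. EIF4EBP1 and the sum of the 8 leukocyte markers, led by CD4, had the closest relation. Pearson's r was 0.88 (permutation p = 4e-05, adjusted p = 0.0017) and Spearman's rho was 0.85 (permutation p = 0.00072, adjusted p = 0.030). Cows with low summed leukocyte markers, such as CONT cow 8027 (16.1) and REST cow 1018 (19.7), had EIF4EBP1 levels of 2.29 and 3.03. Cows with high sums, such as CONT cow 1024 and REST cow 1058 (both 35.1), had EIF4EBP1 levels of 4.29 and 4.86.

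The relation of EIF4EBP1 to the leukocyte sum was seen in each diet, with r of 0.86 in the 6 CONT and 0.92 in the 6 REST cows. Without the 2 cows farthest from the median of the sum, 1024 and 8027, r was 0.81. With the slide means removed r was 0.87 (permutation within slides, p = 0.0042), since a slide of 4 arrays is too small for a value of its own. The other EIF4EBP1 probe gave r of 0.80. Both quantities come from the same arrays and share their 75th percentile. EIF4EBP1 itself had r of -0.42 with that percentile (permutation p = 0.174, rho -0.20 with permutation p = 0.545).

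The leukocyte markers did not all go one way. CD4, the coreceptor of helper T cells, made up 36.3 to 81.2% of the summed signal. Over the 8 markers, 6 correlated positively with EIF4EBP1 and 2 negatively. CD4 had r of 0.84 with EIF4EBP1 (permutation p = 0.0006, adjusted over the 8 markers 0.0048; rho 0.80, permutation p = 0.0029, adjusted 0.012), and 0.64 without the 2 cows of most extreme CD4. CD14, the LPS coreceptor of monocytes and macrophages, had r of 0.76 but rho of only 0.50, and r of 0.29 without its 2 most extreme cows, on which its relation rests. CD8A, which marks cytotoxic T cells, went the opposite way with r of -0.71 (permutation p = 0.0118, adjusted p = 0.031; rho -0.80, permutation p = 0.0027, adjusted p = 0.012). CD3E, present on all T cells, had r of -0.57 (permutation p = 0.052, adjusted p = 0.083; rho -0.52, adjusted p = 0.167). PTPRC, the pan-leukocyte antigen CD45, had r of 0.34 (adjusted p = 0.361; rho 0.24, adjusted p = 0.592). EIF4EBP1 thus rose with CD4 and fell with CD8A in the same 12 cows, while the relation to CD3E did not pass. REST cow 0049, with the highest CD4 level (4.71), had the highest summed secretory markers (6379) and the lowest CD3E (0.10), CD8A (-0.83) and CD68 (-0.55) levels of all cows. CONT cow 8027 was the reverse, with the lowest CD4 level (2.55) and the highest CD3E level (2.05) of all cows. ELF5, a marker on the secretory list, was highest in cow 0049 (7.32) and lowest in cow 8027 (4.95). Which cells the CD4 probe, and the sum it leads, follow in these biopsies was not tested. Whether leukocytes carry the EIF4EBP1 transcript was not tested either.

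**Figure D3:**
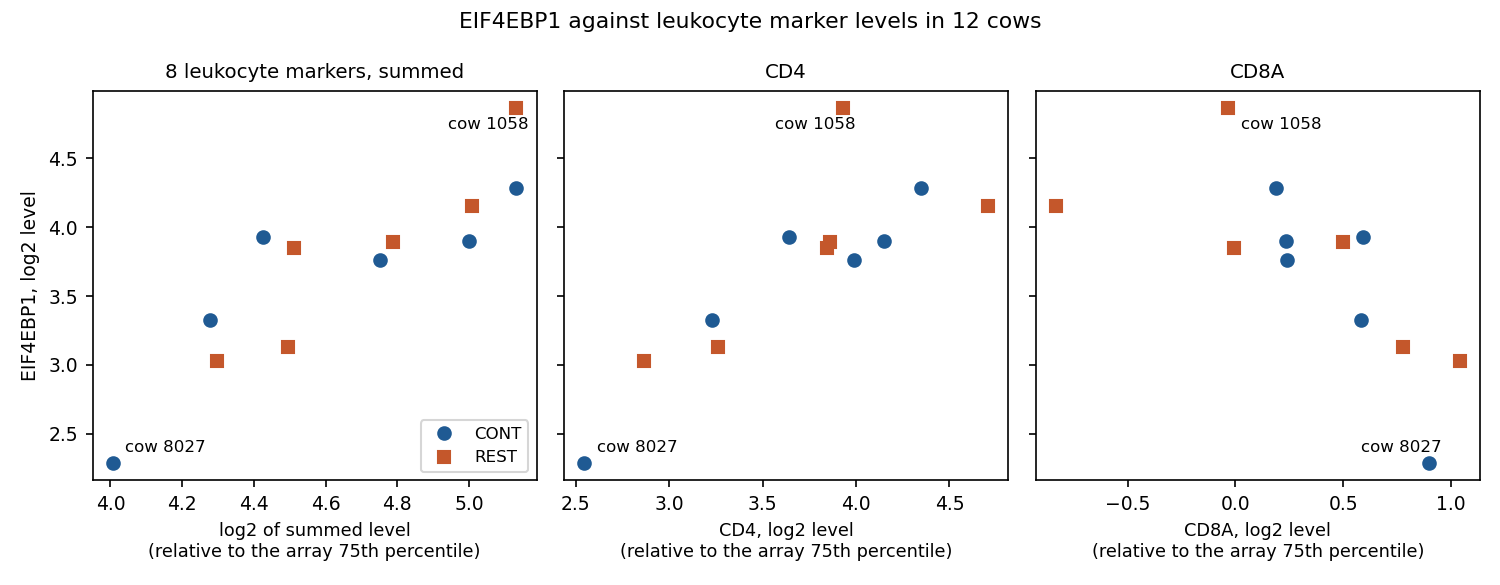
Level of EIF4EBP1 (vertical axis, log2 relative to the array's 75th percentile) against the log2 summed level of 8 leukocyte markers, the level of CD4 and the level of CD8A (horizontal axes); each point is 1 of 12 cows, circles CONT and squares REST. EIF4EBP1 rises with the sum (r = 0.88) and with CD4 (r = 0.84) and falls with CD8A (r = -0.71), and both diets lie along the same trends.

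Of the 42 relations, 3 had an adjusted p under 0.05 for r and 1 for rho, the leukocyte relation being in both counts. EIF4EBP1 and the adipocyte markers had r of 0.80 (adjusted p = 0.036) and rho of 0.58 (adjusted p = 0.311), and r was 0.59 without cow 8027 alone. FABP4 and CIDEA made up at least 98.6% of this sum in every cow, and only these 2 of the 6 matched adipocyte markers were above background on all arrays. EIF4EBP1 had r of 0.65 with the secretory sum (permutation p = 0.022, adjusted p = 0.103; rho 0.59, adjusted p = 0.311), and 0.69 with the endothelial sum (permutation p = 0.019, adjusted p = 0.101; rho 0.36, adjusted p = 0.502), of which 0.40 and 0.20 were left without cows 8027 and 0049. RPS6KB1 and the secretory epithelial markers had r of 0.78 (adjusted p = 0.036) and rho of 0.75 (adjusted p = 0.148), and r was 0.58 without cows 8027 and 0049. The other RPS6KB1 probe gave r of 0.35 with the secretory markers, and quantile normalization gave 0.51. With the slide means removed, r of RPS6KB1 with the secretory sum was 0.60 (permutation within slides, p = 0.134). The same step gave EIF4EBP1 and the adipocyte sum r of 0.77 (permutation within slides, p = 0.0501). Neither of these p-values was under 0.05. The adipocyte relation thus leaned on cow 8027, and that of RPS6KB1 was not shared by its second probe.

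Between the diets, the summed leukocyte markers were 16.1 to 35.1 in CONT and 19.7 to 35.1 in REST, and 1 of the 8 (MS4A1, a B cell antigen) had an unadjusted p under 0.05. MS4A1 had the higher mean in REST, but it was above background on none of the 6 CONT and on 4 of the 6 REST arrays. It thus entered the count through its REST arrays alone, and no fold is given for it. Without cow 8027 the log2 change of the leukocyte sum from CONT to REST was -0.012 in place of 0.11. Summed secretory markers were 1593 to 4760 in CONT and 2207 to 6379 in REST. Of the 7 fibroblast markers 6 had the lower mean in REST (median log2 FC -0.60), 3 of them at an unadjusted p under 0.05. Their sum was 50.2 to 68.7 in CONT and 23.6 to 70.2 in REST (exact permutation p = 0.048, and 0.087 without cow 8027). All 6 endothelial markers had the higher mean in REST (median log2 FC 0.49), 1 of them at an unadjusted p under 0.05. The endothelial sum was 6.88 to 29.9 in CONT and 23.5 to 39.9 in REST (exact permutation p = 0.080). Its log2 change was 0.53, and 0.20 without cow 8027. The corresponding change of the secretory sum was 0.32, and 0.15 without this cow; CSN1S1 and PAEP, which are part of that sum, were each saturated on 1 array. The largest change of a sum was that of the adipocyte markers, 1.07 (exact permutation p = 0.136), and 0.50 without this cow (exact permutation p = 0.273). This sum is a level of FABP4 and CIDEA, and a change in adipocytes was not shown. Of the 6 matched adipocyte markers 5 had the higher mean in REST. LEP, above background on 5 arrays, had the lower (log2 FC -1.02, SE 0.72). The part of these cell type levels in the member values was not tested beyond the relations given.

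The rest of the pathway was followed in 112 genes on 9 lists, of which 85 were matched and 83 were above background on at least 1 array. Of the 83 genes, 42 (50.6%) had the higher mean in REST, and the median log2 FC was 0.0016, against -0.024 over all 11532 genes. An unadjusted p under 0.05 was reached by 2 genes (2.41%, against 2.84% of all genes), both lower in REST and both of the amino acid arm. No list gene passed either adjustment over all probes.

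Upstream of AKT, the 9 measured adaptors and brakes of the insulin and IGF1 receptors had a median log2 FC of 0.010, and 6 were higher in REST. GRB14, an adaptor that binds the insulin receptor and inhibits it, had the largest difference of the list, with a log2 FC of -0.63 (SE 0.55). Its CONT levels were -2.66 to -0.014 and its REST levels -3.48 to -0.55, so that the diets overlapped over most of their range. The value was -0.34 without CONT cow 8027 or REST cow 0049 and -0.93 without REST cow 1018. Among the 8 genes of PI3-kinase and its phosphatases, 6 were higher in REST and the median was 0.094. The regulatory subunit PIK3R1 led them with 0.23 (SE 0.33), and 0.041 to 0.39 over the alternatives. Of the 8 AKT partners and substrates 6 were higher, and the median was 0.025.

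All 3 measured genes of the TSC and RHEB step had the lower mean in REST, and the median log2 FC was -0.041. RHEB, the GTPase that activates mTOR complex 1, had levels of 2.32 to 2.79 in CONT and of 1.92 to 2.60 in REST. Its log2 FC was -0.26 (SE 0.15; exact permutation p = 0.050, two-sided, n = 6), with limma's unadjusted p above 0.05, and its second probe gave -0.24 (SE 0.15). The diets overlapped in both probes. The 8 further mTOR complex subunits split evenly, 4 higher and 4 lower, with a median of -0.0023. PRR5L, which binds complex 2, had the largest value with 0.26 (SE 0.55) and was detected in 2 CONT and 3 REST cows. Its sign turned without REST cow 0078 (-0.10) or CONT cow 0015 (-0.070).

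The amino acid arm, which brings mTOR complex 1 to the lysosome when amino acids are plentiful, held 23 measured genes. Of these 9 were higher in REST, and the median log2 FC was -0.062. RRAGA, a Rag GTPase that docks the complex on the lysosome, had levels of 2.19, 2.50 and 2.79 (lowest, median and highest) in CONT and of 1.88, 2.02 and 2.53 in REST. All REST cows but cow 1058 lay below the lowest CONT cow. RRAGA had a log2 FC of -0.43 (SE 0.17; exact permutation p = 0.017, two-sided, n = 6). The other RRAGA probes, also above background on all arrays, gave -0.039 (SE 0.13) and -0.17 (SE 0.14), so the difference of the brightest probe was not shared in size.

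LARS1, the leucyl-tRNA synthetase that also serves as a leucine sensor, had levels of -0.22, 0.050 and 0.17 (lowest, median and highest) in CONT and of -0.63, -0.37 and -0.095 in REST. All 6 REST cows lay below the CONT mean and 4 of them below every CONT cow. LARS1 had a log2 FC of -0.36 (SE 0.14; exact permutation p = 0.009, two-sided, n = 6). Its other 3 probes gave -0.27 (SE 0.17), -0.16 (SE 0.18) and 0.077 (SE 0.20). SESN2, a leucine-binding inhibitor of this arm that is induced by stress, had the largest difference of the list, 0.51 (SE 0.43), and 0.13 to 0.74 over the alternatives.

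With slide as a block, the log2 FC was -0.39 for RRAGA and -0.32 for LARS1, and neither kept an unadjusted p under 0.05. When a gene's probes were averaged, no gene of the 9 lists did. RRAGA also lost it without CONT cow 1076 (-0.37) or CONT cow 1024 (-0.37), and LARS1 without REST cow 7043 (-0.30) or with normexp background correction (-0.28).

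Downstream, 5 of the 11 measured translation targets were higher in REST, with a median of -0.044. EIF4E, the cap-binding protein that EIF4EBP1 holds, had levels of 1.03, 1.21 and 1.48 (lowest, median and highest) in CONT and of 0.58, 0.92 and 1.25 in REST. EIF4E had a log2 FC of -0.31 (SE 0.15; exact permutation p = 0.026, two-sided, n = 6), and limma's unadjusted p was above 0.05 in the reported fit but under 0.05 in 6 of 20 alternatives, which include median centring and quantile normalization. Its other probes both gave -0.26 (SE 0.16), and the diets overlapped in all 3 probes. Among the 8 measured energy and stress brakes 5 were higher and the median was 0.0067. PRKAA2, a catalytic subunit of the energy sensor AMPK, had the largest difference with 0.30 (SE 0.32), and 0.16 without CONT cow 8027 and 0.099 without REST cow 0049. Of the 5 autophagy and lysosome targets 1 was higher, and the median was -0.11. ULK1, the kinase that starts autophagy and is restrained by mTOR, led this list with -0.31 (SE 0.49). Its value was -0.70 without CONT cow 8027, -0.047 without REST cow 1018 and -0.074 without CONT cow 0015.

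**Figure D4:**
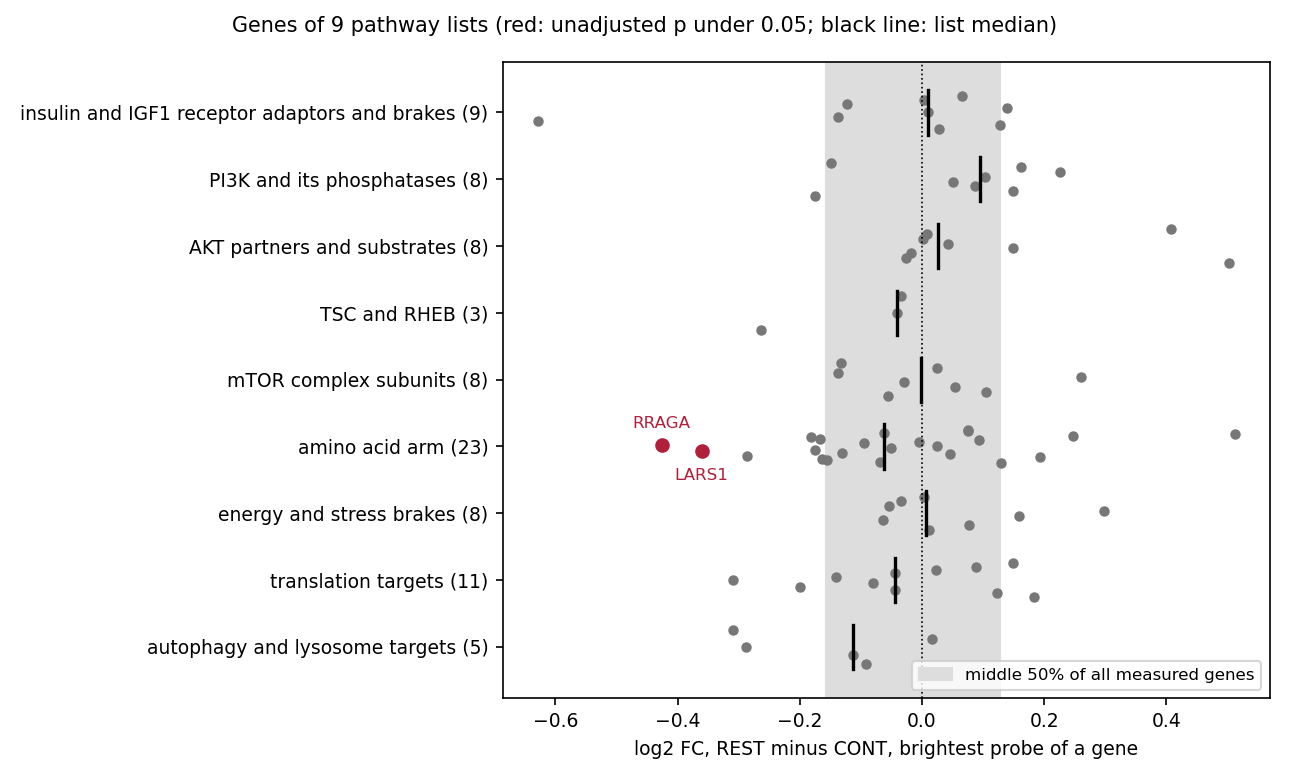
Log2 FC (REST minus CONT, horizontal axis) of the brightest probe of each of 83 measured genes on 9 pathway lists, with the number of genes in brackets; black lines are list medians, red points have an unadjusted p under 0.05, and the grey band spans the middle 50% of all 11532 genes. The list medians lie within the band, and RRAGA (-0.43) and LARS1 (-0.36) are the red points.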

How the data were processed

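Total RNA of each biopsy was amplified, labeled with Cy3 and hybridized by the authors to an Agilent bovine array. The deposited values are spot intensities from Feature Extraction (version 11.0.1.1, per the file headers), background-corrected and not normalized between arrays, and the deposited flags for outlier, saturated and well above background spots were used as given. Non-control spots were kept, outlier spots (missing for 205 of 43653 probes) were left out, and log2 intensity minus the array's 75th percentile was averaged per probe. Probes were named by RefSeq accession, without version, through a RefSeq table of ARS-UCD2.0 (26832 probes, 12639 genes). The array design uses an older assembly, so no positions are given.

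The diets were tested with limma 3.58.1 (R 4.3.3), with Westfall-Young adjusted p-values over 100 splits of the cows. Exact permutation tests were two-sided, with a smallest possible p of 0.0022. Relations over cows used 100000 permutations (SciPy 1.17.1), and their alternatives 10000. Matplotlib 3.10.9 drew the figures. Simulated data with known changes were used to test the fit.

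The brightest probe stands for a gene. All members are named. Of the pathway lists, genes with an unadjusted p under 0.05 and the gene of largest change in each list are named, except 1 that is not reported here. The members, lists and tests were chosen with earlier results of these data known. A planned comparison of IRS1 with IRS2 was not run, because neither was matched. The number of arrays limits the precision.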

Additional observations from a re-analysis of the deposited data

Results flagged for a closer look

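In 62 groups of 6 cows that were examined, 5 held 1 cow far from the others, where chance gives about 3.1 (1 in 20). The second probe of EIF4EBP1 was 1.57 in CONT cow 8027, below 2.64 to 3.17 in the other CONT cows. The same cow had a log2 summed level of endothelial markers of 2.78, against 4.59 to 4.90 in the other CONT cows. RRAGA was 2.53 in REST cow 1058 and 1.88 to 2.12 in the other REST cows. ULK1 was -4.28 in REST cow 1018 and -3.02 to -2.28 in the other REST cows. The log2 summed level of myoepithelial markers was 8.23 in CONT cow 0055 and 6.81 to 7.25 in the other CONT cows.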

How the results depend on the processing

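The count of 0 adjusted calls was the same under every alternative run (lowest Westfall-Young p of 0.06 with the filter on probes well above background, 0.16 with the intensity trend and 0.21 to 0.64 with 1 cow left out), and no member reached an unadjusted p under 0.05 in those run for it. The intensity trend was not run for single members, and the filter left out AKT2, RPTOR and DEPTOR. The members with the higher mean in REST were 4 to 6 of 6. AKT1 (0.059 to 0.23), AKT2 (0.019 to 0.61) and RPS6KB1 (0.0021 to 0.21) kept their sign in these, with those ranges of log2 FC. The log2 FC of RPTOR was 0.14 with quantile normalization and -0.21 to 0.14 with 1 cow left out, and it turned without CONT cow 8027 (0.14) or REST cow 0049 (0.0020). That of DEPTOR was -0.051 with normexp and 0.045 to 0.35 with 1 cow left out, and that of EIF4EBP1 was -0.022 to 0.39 with 1 cow left out. The AKT1 minus AKT2 change was 0.13 with normexp, and the EIF4EBP1 minus RPS6KB1 change was -0.17 to 0.23 and the DEPTOR minus RPTOR change 0.043 to 0.54 with 1 cow left out; the cause was not tested. Pathway list genes at an unadjusted p under 0.05 numbered 1 with normexp, 4 with the filter on probes well above background, 1 with slide as a block, 4 with an intensity trend, 0 with the mean over all probes, and 1 to 4 with 1 cow left out (1 without cow 1076 or 7043, 4 without cow 0078). Over all probes that count was 377 with normexp and 1739 without REST cow 1058. The r of EIF4EBP1 with the leukocyte sum was 0.82 to 0.92 with 1 cow left out; these alternatives were chosen after seeing the data. Scaling moved the median of all probes from -0.023 to at most -0.079. AKT2, RPTOR and DEPTOR are limited by dim signal. No paired analysis was made, because the diets were fed to different cows.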
